A study of Mus musculus with 4 samples.

Results

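Drd1, Tac1, Pdyn, Isl1, Sfxn1, Eya1 and Chrm4 are 7 genes named as markers of the direct-pathway neurons of the striatum, and they were read as 7 of the 19465 genes in a table of spatial counts from mouse brain. They were taken by symbol, as a list of genes known from these neurons, and not by a cut on a measured value. Earlier results of these data were known when the list and the area markers were chosen. Each gene was followed through dorsal striatum, ventral striatum and the other areas of the section, with areas set by marker genes outside the list. The list did not behave as 1 group: Drd1, Tac1, Pdyn and Chrm4 were high in striatum, Isl1 was present there at a level shared with several other areas, Eya1 was near the level of the rest of the section, and Sfxn1 was lowest in dorsal striatum. The name "direct-pathway genes" is therefore used below for the list and not as a description of where its members were found.

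The samples were coronal brain sections of 4 mice, formalin-fixed and embedded in paraffin, measured with the Visium CytAssist assay, in which probes for each gene are captured on a grid of barcoded spots. The mice were 2 wild-type animals and 2 heterozygous for Celsr3, a gene of the adhesion G protein-coupled receptor family, with no treatment in either group. Their age, strain and Celsr3 allele are not given in the labels used here. The study asked how lower Celsr3 dosage bears on the striatum and its dopamine system, but the spots carry only a barcode ending, which splits them into 4 sets that no label ties to a mouse or a genotype. Values are therefore given for barcode sets 1 to 4 side by side, with no comparison of genotypes. The spots of a set come from a single library as far as the barcodes show, so there was no replicate error, and every interval is a 95% interval that covers counting error only.

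Sets 1 to 4 held between 2808 and 3445 spots and between 90752475 and 174761560 counts, with a median of 26444 to 52481 counts per spot. The barcodes are positions on the slide, and 1613 of 4744 different barcodes occurred in all 4 sets. A spot can hold several cells of different types, so a lower level in an area can come from fewer cells of a type or from less RNA per cell, and these cannot be told apart. Levels are counts per 1000000 counts (CPM) summed over the spots of an area. The probes of 2 genes can capture RNA differently, so levels were compared between areas and sets for a gene and never between genes.

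Direct-pathway neurons are the medium spiny neurons that project from the striatum to the output nuclei of the basal ganglia, and their activity promotes movement. They carry the D1 dopamine receptor, which raises cAMP, and they make substance P and dynorphin as peptide transmitters. The neighbouring indirect-pathway neurons carry the D2 dopamine receptor and an adenosine receptor and make enkephalin. Dynorphin marks patches of the dorsal striatum and is abundant in the ventral striatum, where it acts on kappa opioid receptors.

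The windows around the transcription start are shown for Drd1, Tac1, Pdyn and Sfxn1. Drd1 and Tac1 were taken because their log2 levels had the highest correlation across areas and sets of any pair of members. Pdyn was taken because it differed most between the striatal areas. Sfxn1 is the gene next to Drd1 and had the opposite pattern. The sequences are RefSeq's for GRCm38.p6, from 250 bases before to 50 after the start. They are written 5′ to 3′ on the gene's strand, and 6 of the 7 members had such a window. For a member with several windows the one farthest upstream was taken, so the matches hold for that start alone. The shares over all windows count every start. Capitals mark the letters TGACG or their reverse complement CGTCA, the half-site bound by cAMP-responsive factors, and the search also covered the TATA box letters TATAAA and TTTATA. The window of Drd1 lies at chr13:54055609-54055908 on the minus strand, that of Tac1 at chr6:7554811-7555110 on the plus strand, that of Pdyn at chr2:129699889-129700188 on the minus strand and that of Sfxn1 at chr13:54071595-54071894 on the plus strand.
Drd1: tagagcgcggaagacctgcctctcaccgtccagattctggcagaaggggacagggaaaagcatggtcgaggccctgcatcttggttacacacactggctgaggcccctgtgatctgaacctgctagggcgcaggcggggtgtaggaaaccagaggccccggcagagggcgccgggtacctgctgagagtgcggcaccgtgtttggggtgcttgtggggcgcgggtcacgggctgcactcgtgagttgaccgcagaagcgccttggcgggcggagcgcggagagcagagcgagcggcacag
Sfxn1: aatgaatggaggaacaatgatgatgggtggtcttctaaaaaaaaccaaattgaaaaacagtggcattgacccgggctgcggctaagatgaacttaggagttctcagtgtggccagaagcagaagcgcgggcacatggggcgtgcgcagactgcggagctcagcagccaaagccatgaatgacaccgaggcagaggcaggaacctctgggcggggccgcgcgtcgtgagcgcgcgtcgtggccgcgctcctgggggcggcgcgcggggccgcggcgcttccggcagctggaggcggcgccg
Tac1: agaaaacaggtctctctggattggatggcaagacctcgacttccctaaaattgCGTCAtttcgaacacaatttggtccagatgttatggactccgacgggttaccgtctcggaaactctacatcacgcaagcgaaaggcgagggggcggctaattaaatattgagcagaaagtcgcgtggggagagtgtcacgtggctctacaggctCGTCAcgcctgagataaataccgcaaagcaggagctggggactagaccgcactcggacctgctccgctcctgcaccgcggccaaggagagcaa
Pdyn: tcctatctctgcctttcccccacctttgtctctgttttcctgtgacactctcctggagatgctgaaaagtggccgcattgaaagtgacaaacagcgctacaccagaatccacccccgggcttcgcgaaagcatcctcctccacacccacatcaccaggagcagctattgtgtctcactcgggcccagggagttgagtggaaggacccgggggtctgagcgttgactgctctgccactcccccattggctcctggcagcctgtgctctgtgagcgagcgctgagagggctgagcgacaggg
The Tac1 window held 2 half-sites and the windows of Drd1, Pdyn and Sfxn1 held 0. Among all 32851 windows, 20.8% held a half-site and 13.6% held the TATA box letters, which occurred in 0 of the 6 members' windows. Isl1 also had 2 half-sites and Chrm4 had 0. The 6 windows had a GC content of 65.7% for Drd1, 54.0% for Tac1, 59.0% for Pdyn, 69.0% for Isl1, 63.3% for Sfxn1 and 70.7% for Chrm4, against a median of 52.7% over all windows. Drd1 and Sfxn1 are listed next to each other on chromosome 13, on opposite strands and with their starts facing each other. These matches describe letters in a window and carry no information on binding.

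Areas were set by scoring each spot for 13 lists of marker genes, none of which holds a member. Striatal spots were those with the highest score for 9 striatal markers such as Ppp1r1b and Rgs9, and they were split by 8 ventral markers (Crym, Dlk1 and others) against 3 dorsal markers (Cnr1, Coch and Gpr155). Dorsal striatum held 370, 434, 522 and 296 spots in sets 1 to 4, and ventral striatum held 288, 268, 310 and 157. The genes leading the dorsal area included Scn4b, Ppp1r1b, Pde10a and the indirect-pathway genes Adora2a and Drd2, in varying order. All 3 dorsal markers were at least 2-fold above the rest of the section. Spots were assigned by these same marker lists, so marker levels are no separate check of this label or of those below. The ventral label was weaker: Penk, Rgs9 and Adora2a were among its leading genes, and 1 of its 8 markers was at least 2-fold above the rest of the section. Of the ventral markers, Dlk1, Arhgap36 and Peg10 were also among the leading genes of the hypothalamic and preoptic area in at least 1 set. The score had no gap between the areas, and 13.5% to 18.8% of striatal spots lay within 0.25 of the threshold. By the same look at leading genes and markers, the other labels held for most areas. However, the area called hippocampus had 37 to 74 spots in sets 1, 3 and 4 and showed 3 of its 5 markers above the rest. The septum area of set 4 was led by Pou4f1 and Gng8 among others, and thalamus reached 30 spots in sets 1 and 4.

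Of the 7 members, 4 were at least 2-fold higher in dorsal striatum than in all other areas in each of the 4 sets: Drd1, Tac1, Pdyn and Chrm4. The same held for 3.2% of the 11300 genes compared, those averaging 5 CPM or more over both groups of spots, among them all 7 members. The median difference of the members was 2.05, 1.23, 1.82 and 2.49 on the log2(CPM + 1) scale in sets 1 to 4, where the median of all genes was -0.11, -0.11, -0.10 and -0.11. No test over the sets was run, because the pooled table does not tie them to samples, and the list was chosen for striatal neurons. With areas taken from Leiden clusters, the fold moved by about 1.5 times or more in 4 cases. The log2 difference was then 2.70 for Drd1 and 2.44 for Tac1 in set 3, 1.45 for Pdyn in set 1 and 1.41 for Isl1 in set 4. The other areas then included a cluster of 634 spots led by Pdyn, Crym and Penk. Its part in these shifts was not tested.

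Drd1 encodes the D1 dopamine receptor that defines these neurons. Its level in dorsal striatum was 63.8, 58.0, 64.1 and 53.7 CPM in sets 1 to 4, with intervals between 48.5 and 67.6. In all other areas together it was 3.73, 5.26, 4.44 and 3.53 CPM. The sets were close to each other and the striatal and other levels did not overlap, with ratios of 17.1 (15.4 to 19.0), 11.0 (9.82 to 12.4), 14.5 (13.1 to 15.9) and 15.2 (13.0 to 17.8). Set 2 had the lowest ratio and the highest level elsewhere, and 107 of the 144 Drd1 counts in its cortex layers 2 to 4 area came from 38 spots described below. Outside striatum, the basal forebrain cholinergic zone had the highest median of Drd1 over sets, at 15.5, 13.0, 10.7 and 6.003 CPM, where Drd2 also reached 45.7 to 111.0 CPM. It was the next highest area in set 1 alone, and the ventricle area had 22.1 CPM in set 2. In cortex, layer 6 had 4.49 to 6.57 CPM and layer 5 had 1.16 to 2.55 CPM, and these ranges did not overlap.

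Tac1 encodes the precursor of substance P, the tachykinin that direct-pathway neurons release. It reached 496, 526, 359 and 451 CPM in dorsal striatum of sets 1 to 4 and 60.1, 67.5, 41.0 and 44.6 CPM in all other areas. Set 3 was lowest in both, and its dorsal level was below that of set 2 by a ratio of 1.46 (1.42 to 1.51) for set 2 over set 3. The ratios of dorsal striatum to other areas were nearer to each other than the levels, at 8.26 (8.02 to 8.502), 7.78 (7.52 to 8.05), 8.74 (8.44 to 9.05) and 10.1 (9.63 to 10.6). The hypothalamic and preoptic area held 161, 43.3, 110 and 99.2 CPM of Tac1, a 3.72-fold range over sets that is wider than in either striatal area. In the septum area Tac1 was 11.6, 13.9 and 11.4 CPM in sets 1 to 3 and 81.9 CPM in set 4, the set whose septum label was in doubt.

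Chrm4 encodes the M4 muscarinic acetylcholine receptor, which couples to inhibitory G proteins and opposes D1 signalling. Its dorsal level was 95.3, 190, 109 and 179 CPM, and its level in all other areas was 14.8, 43.4, 18.9 and 31.1 CPM. Sets 2 and 4 were above sets 1 and 3 in both, with no overlap, so the ratios stayed between 4.38 (4.17 to 4.60) in set 2 and 6.44 (6.04 to 6.86) in set 1. By the median over sets, cortex layers 2 to 4 came next after striatum, at 24.9, 62.1, 23.8 and 52.0 CPM. Layer 5, at 21.7, 48.3, 23.1 and 46.4 CPM, and the basal forebrain cholinergic zone, at 30.7 to 59.4 CPM, overlapped with them. Thalamus, at 3.04 CPM in set 1 and 5.05 CPM in set 4, and hypothalamus, at 5.17 to 11.6 CPM, had the lowest medians over sets.

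Pdyn encodes prodynorphin, the precursor of the opioid peptide dynorphin. Its dorsal level was 75.5, 77.7, 62.2 and 303 CPM and its level in other areas 17.4, 32.5, 16.9 and 37.4 CPM. Set 4 stood far above the other sets in dorsal striatum, and the ratio of dorsal striatum to other areas ran from 2.39 (2.23 to 2.56) in set 2 to 8.11 (7.67 to 8.57) in set 4. Layer 5 of cortex had 27.9, 40.9, 21.7 and 62.4 CPM. In the small area called hippocampus Pdyn was 59.2, 76.0 and 174 CPM in sets 1, 3 and 4. C1ql2, a gene of dentate granule cells, led that area in sets 1 and 4. The same area also held 712 to 850 CPM of Penk and 45.5 to 59.5 CPM of Drd2. In all other areas together, Penk was at 138 to 187 CPM and Drd2 at 13.4 to 25.9 CPM. Which cells carried its Pdyn was not tested. The ventricle area of set 2, which had 35 spots, reached 151 CPM of Pdyn, so the dorsal level was below that of the ventricle area in set 2 and of the hippocampus area in set 3.

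Isl1 encodes a LIM homeodomain transcription factor needed for the development of striatonigral and cholinergic neurons. It was at 17.1, 21.8, 19.5 and 16.0 CPM in dorsal striatum against 10.3, 9.94, 9.02 and 8.66 CPM in all other areas, with ratios of 1.66 (1.46 to 1.87), 2.19 (1.93 to 2.49), 2.16 (1.93 to 2.41) and 1.85 (1.505 to 2.25). Each ratio was above 1 beyond counting error. Dorsal striatum was not its highest area: the hypothalamic and preoptic area had 31.0, 27.3, 24.3 and 19.0 CPM, of which the last 2 were below ventral striatum, and the basal forebrain cholinergic zone had 22.9, 21.5, 20.6 and 21.2 CPM. The septum area had 28.4 CPM in set 2 and 32.7 CPM in set 3, but 10.3 CPM in set 1 (15 counts) and 4.41 CPM in set 4 (14 counts). Cortex layer 5 had 0.385 to 0.951 CPM, on 4 to 19 counts, while layers 2 to 4 reached 6.53 CPM in set 2 and layer 6 reached 6.77 CPM in set 4.

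Eya1 encodes a transcriptional coactivator with phosphatase activity. Its dorsal levels of 11.7, 11.3, 9.36 and 12.1 CPM lay around the 9.65, 10.1, 10.1 and 8.31 CPM of the other areas. The ratio was above 1 beyond counting error in sets 1 (1.22, 1.05 to 1.40) and 4 (1.46, 1.16 to 1.83), and within it in sets 2 (1.12, 0.945 to 1.32) and 3 (0.924, 0.793 to 1.07). By the median over sets, the meninges area held the most Eya1, at 18.9, 30.4, 36.3 and 19.7 CPM, although in set 4 the ventricle area had 21.1 CPM. Thalamus and the hypothalamic and preoptic area had 3.18 to 4.78 CPM, below both striatal areas. Cortex layers 2 to 4 and layer 5 had 9.82 to 12.0 CPM, a range inside that of the striatal areas, 8.02 to 12.1 CPM.

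Sfxn1 encodes sideroflexin 1, a mitochondrial carrier of serine. It was the member whose direction went against the list. It had 56.0, 60.3, 58.9 and 51.3 CPM in dorsal striatum and 107, 115, 104 and 96.9 CPM in all other areas, with ratios of 0.523 (0.491 to 0.556), 0.524 (0.490 to 0.561), 0.569 (0.536 to 0.602) and 0.530 (0.476 to 0.588). The dorsal level was below the other areas in each of the 4 sets and the levels did not overlap. By the median over sets, dorsal striatum ranked last of the 14 areas for Sfxn1 and ventral striatum next to last, while the hypothalamic and preoptic area ranked highest with 142 to 198 CPM and thalamus next with 144 and 165 CPM. Sfxn1 did not reach 2-fold lower on the log2(CPM + 1) scale in any set, a size that 7.09% of genes reached in all 4.

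**Figure D1:**
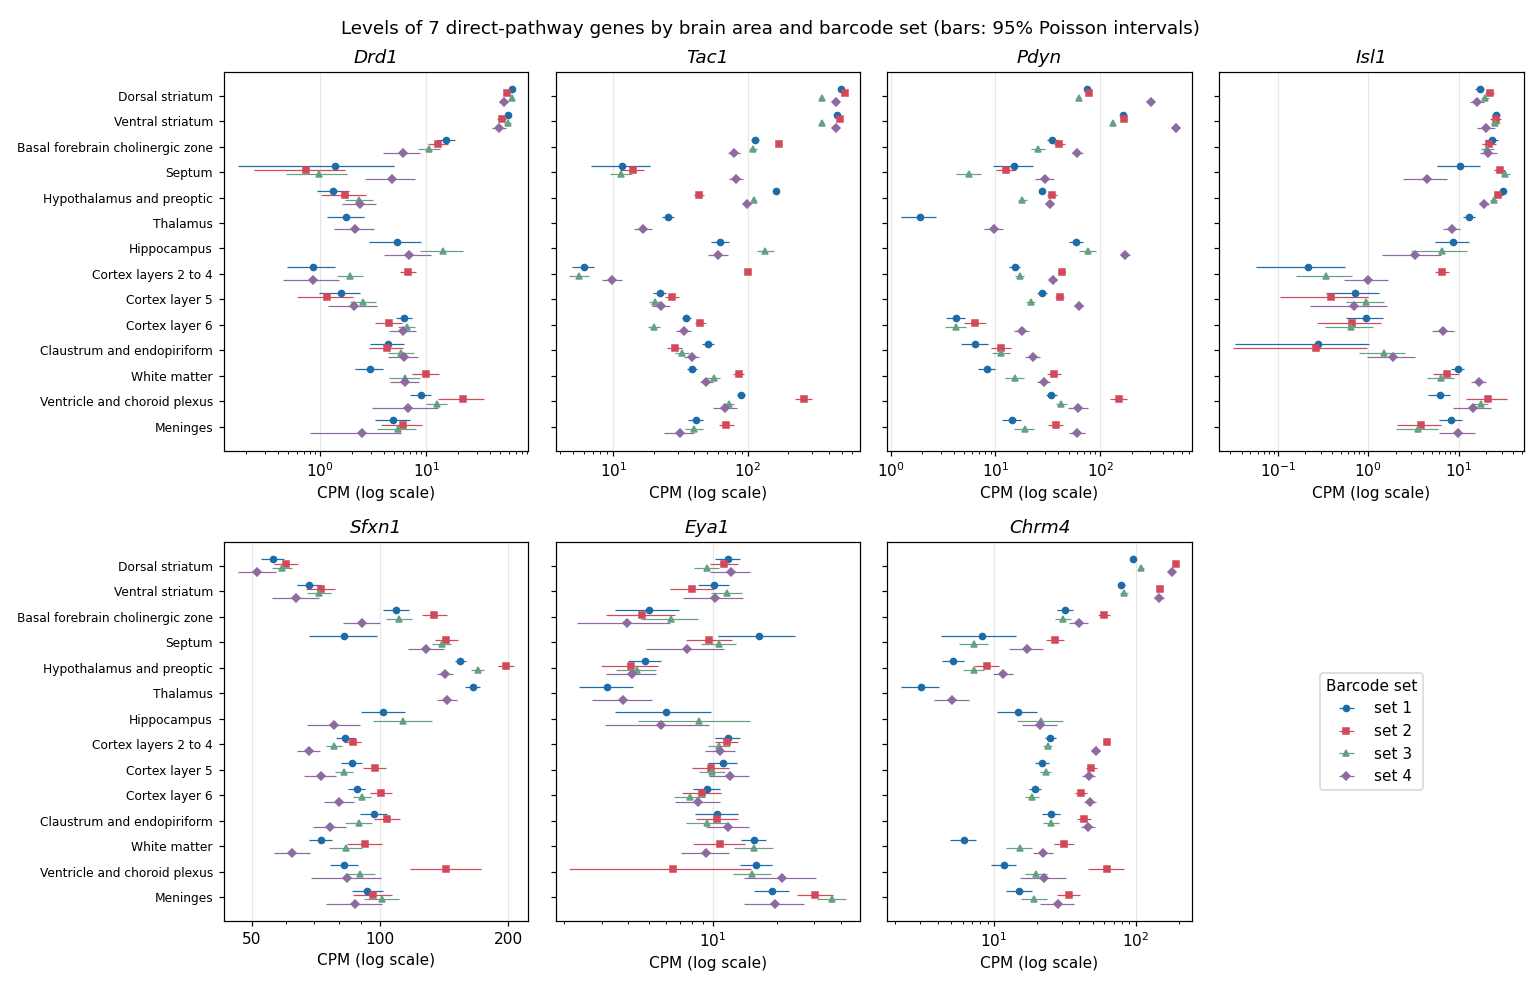
Level of each of the 7 genes (CPM, log axis) in 14 areas, with a marker for each of barcode sets 1 to 4 and bars for 95% Poisson intervals; areas under 30 spots in a set are left out. Drd1, Tac1 and Chrm4 stand highest in both striatal rows and Pdyn in the ventral row, whereas Sfxn1 is lowest in the dorsal row, Eya1 has its highest median in meninges and Isl1 its highest median in hypothalamus.

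The other lists give the setting for these values. Of 6 indirect-pathway genes, 6 were at least 2-fold higher in dorsal striatum than elsewhere in all 4 sets, among them Adora2a, an adenosine receptor, with ratios of 34.1, 21.5, 31.2 and 40.4, and Drd2 with 24.5, 17.7, 24.2 and 23.5. Of 4 other genes reported for direct-pathway neurons, 3 passed (Ebf1, Slc35d3 and Asic4). The fourth, the transcription factor gene Zfp521, had ratios of 1.13, 1.63, 1.40 and 1.02. All 8 genes of D1 receptor signalling passed, including Gnal, the G protein subunit that couples D1 to adenylyl cyclase, at 5.61 to 6.11, and Adcy5, the striatal adenylyl cyclase, at 8.37 to 11.1. Of the receptors for the members' peptides, Tacr1, the substance P receptor, passed with 2.46 to 2.91, and Oprk1, the kappa opioid receptor, did not, with 1.42 to 1.65.

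Between the striatal areas, 1 of the 7 members differed at least 1.5-fold in the same direction in each of the 4 sets. This was Pdyn, higher in ventral striatum, as were 0.938% of 10981 genes, and 0.337% of genes were lower to that degree. Pdyn reached 164, 170, 132 and 529 CPM in ventral striatum, and the ventral level exceeded the dorsal level in each set, by 2.17 (2.03 to 2.32), 2.19 (2.03 to 2.36), 2.12 (1.97 to 2.28) and 1.74 (1.64 to 1.85). Set 4 had the smallest ratio and the highest level in both areas. Pdyn was among the 10 leading genes of ventral striatum in all 4 sets. Oprk1, which encodes the kappa receptor for dynorphin, had ventral over dorsal ratios of 1.49, 1.71, 1.27 and 1.45.

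The remaining members differed less with this split. Chrm4 was lower in ventral striatum, at 78.8, 148, 82.5 and 145 CPM, with ratios of 0.827 (0.767 to 0.892), 0.777 (0.727 to 0.8287), 0.755 (0.701 to 0.812) and 0.810 (0.733 to 0.894). The direction was the same in 4 of 4 sets and beyond counting error in each. With a split on the ventral markers alone, the log2 difference of set 4 moved from -0.30 to -1.44, and in the same set that of Pdyn moved from 0.80 to 1.56 and that of Eya1 from -0.23 to 0.40. Sfxn1 was higher in ventral striatum in 4 of 4 sets, at 68.2, 72.6, 71.9 and 63.4 CPM, with ratios from 1.21 to 1.24 and a lowest bound of 1.05. Isl1, at 25.5, 25.5, 25.3 and 20.1 CPM, had ratios of 1.495, 1.17, 1.30 and 1.26, beyond counting error in sets 1 and 3.

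The D1 receptor and substance P genes showed little difference along this axis. Drd1 was at 58.8, 51.5, 58.7 and 48.9 CPM in ventral striatum, with ratios of 0.921, 0.889, 0.915 and 0.910, below 1 beyond counting error in set 2 (0.793 to 0.995). Tac1 was at 463, 484, 359 and 453 CPM, with ratios of 0.933 (0.904 to 0.964) and 0.921 (0.887 to 0.955) in sets 1 and 2 and of 1.00 (0.964 to 1.04) and 1.01 (0.948 to 1.07) in sets 3 and 4. The Tac1 ratio of set 2 turned to a log2 difference of 0.09 when Otof was taken out of the cortical markers, and the cause was not tested. Eya1 had ratios of 0.861, 0.712, 1.24 and 0.839, below 1 beyond counting error in set 2 alone.

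**Figure D2:**
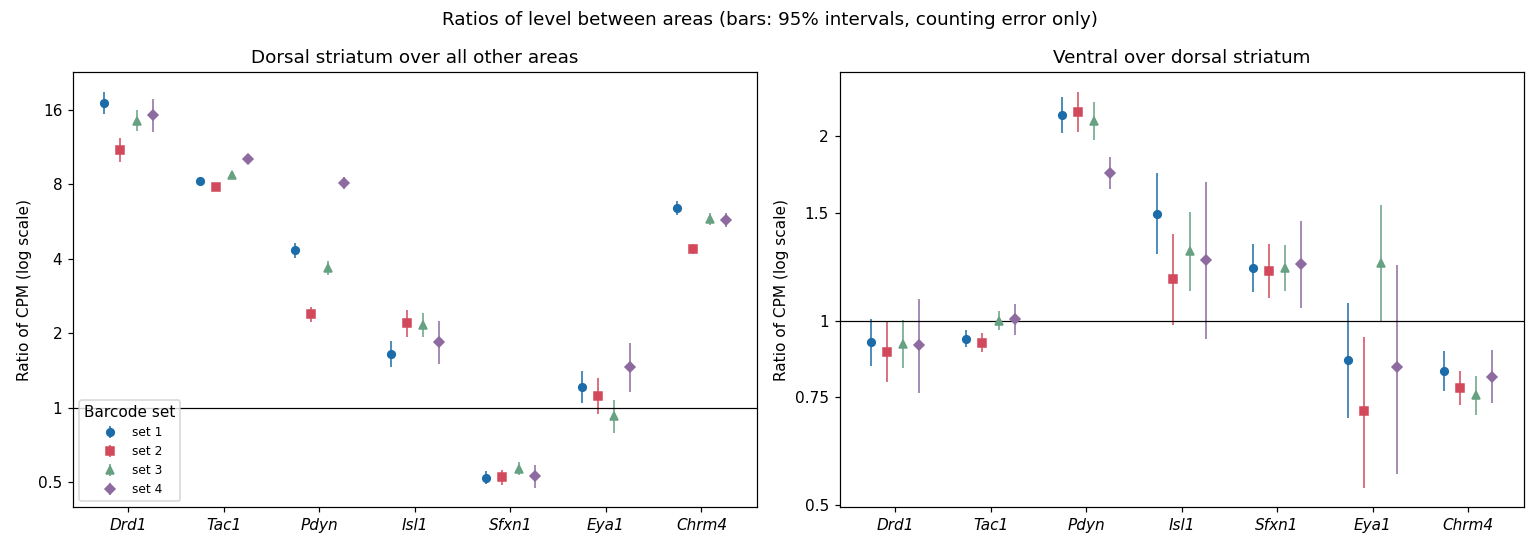
Ratio of CPM (log axis) for each gene and barcode set, left for dorsal striatum over all other areas and right for ventral over dorsal striatum, with 95% exact intervals for counting error; the line marks 1. On the left Sfxn1 lies near 0.5 and Drd1 between 11.0 and 17.1; on the right Pdyn lies between 1.74 and 2.19 and Chrm4 between 0.755 and 0.827.

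The levels of marker lists also differed between the areas. The 9 striatal markers had a median ventral minus dorsal log2 difference of -0.50, -0.54, -0.47 and -0.41, with 8 of 9 lower in ventral striatum in set 3 and 9 of 9 in the other sets. Drd2 fell with them, to 0.734, 0.696, 0.762 and 0.777 of its dorsal level, and Penk to 0.899, 0.843, 0.827 and 0.959. The sum of 8 ventricle markers was 1659, 154, 1569 and 210 CPM in ventral striatum and 162, 84.7, 145 and 127 CPM in dorsal striatum, with 1 marker at 0 in the dorsal area of set 2. The sum of 7 hypothalamic markers ran from 218 to 295 CPM in ventral and from 129 to 181 CPM in dorsal striatum, with 1 marker at 0 in the dorsal area of set 1. For 7 oligodendrocyte markers the sum was 4387 to 9189 CPM in ventral and 4067 to 6929 CPM in dorsal striatum, higher in ventral in each set. In the other direction, 6 cortex layer 6 markers summed to 286 to 368 CPM in ventral and 337 to 406 CPM in dorsal striatum. Likewise, 6 cholinergic markers summed to 29.4 to 49.6 CPM in ventral and 39.7 to 69.2 CPM in dorsal striatum. Both lists were lower in ventral striatum in each set. The part of these differences in the members' ratios was not tested. Pdyn, Sfxn1 and Isl1 had ventral over dorsal ratios above 1 in each set, for Isl1 beyond counting error in sets 1 and 3. Of these genes, only Sfxn1 was also higher in all other areas together than in dorsal striatum.

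To see the change without a threshold, the striatal spots of each set were ordered by the ventral minus dorsal marker score and cut into 5 equal bins. The split used the same score, so the bins are not a separate check of it. Pdyn increased at each of the 4 steps in each of the 4 sets, from 47.9 to 186 CPM in set 1, from 72.7 to 213 CPM in set 2, from 55.8 to 161 CPM in set 3 and from 265 to 633 CPM in set 4. The ratios of the last to the first bin were 3.89, 2.93, 2.89 and 2.39. The increase was steepest at the ventral end in sets 2, 3 and 4, where the fourth bin held 118, 92.1 and 378 CPM. In set 1 the fourth bin was already at 155 CPM. Chrm4 went from 97.1, 214, 116 and 183 CPM in the first bin to 68.7, 134, 76.7 and 120 CPM in the last, or 0.708, 0.624, 0.663 and 0.655 of the start. Drd2 ended at 0.551 to 0.670 and the striatal marker Ppp1r1b, the cAMP-regulated phosphatase inhibitor DARPP-32, at 0.587 to 0.681 of their first bins. Drd1 ended at 0.804, 0.755, 0.892 and 0.816, and Isl1 at 1.70, 1.61, 1.30 and 1.63.

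**Figure D3:**
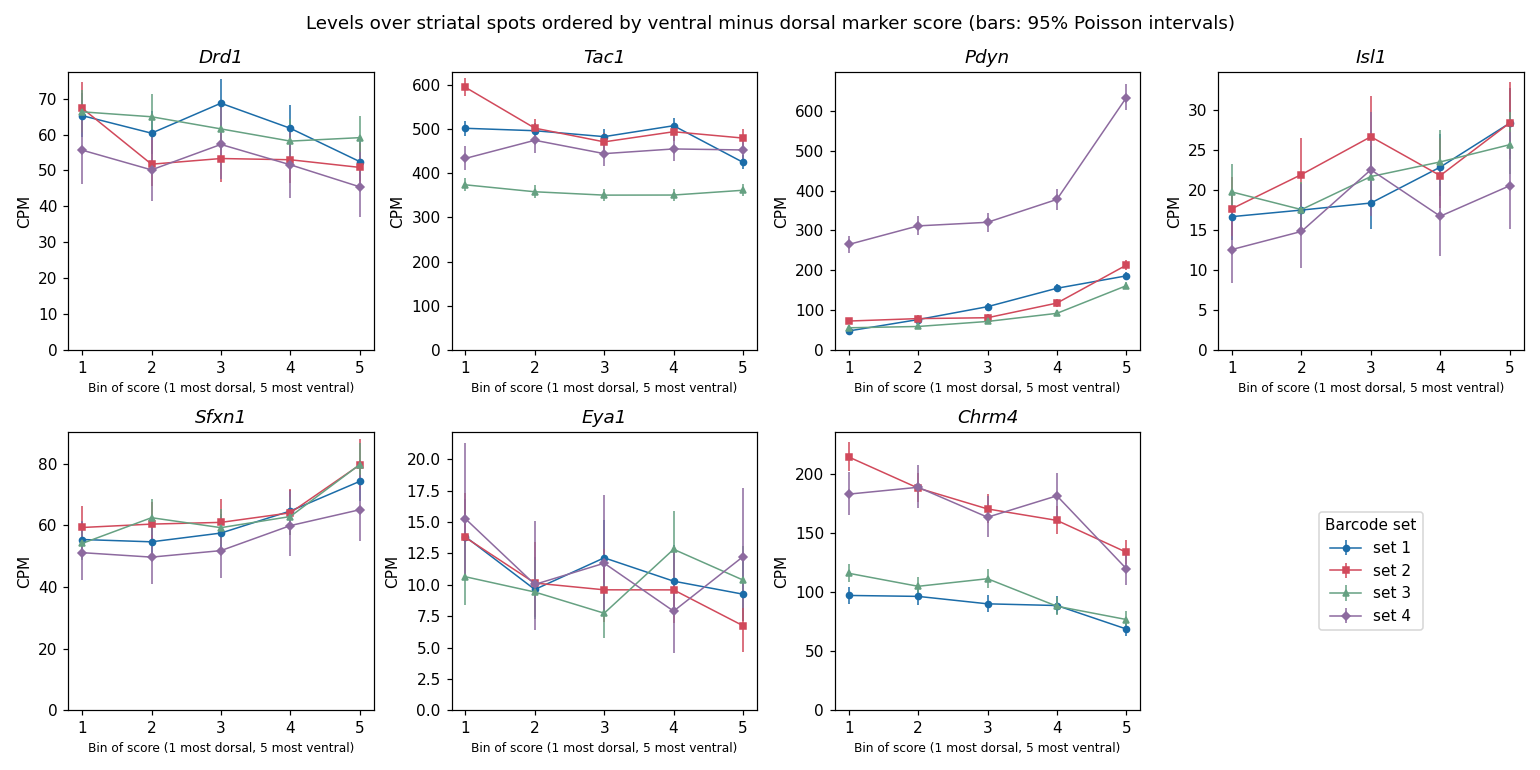
Level of each gene (CPM, axis from 0) in 5 bins of striatal spots ordered from the most dorsal to the most ventral marker score, for barcode sets 1 to 4, with 95% Poisson intervals. Pdyn climbs at each step in all 4 sets, with set 4 above the others throughout, and Chrm4 ends lower than it starts while Tac1 ends at 0.807 to 1.04 of its start.

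The sets were then compared with each other inside dorsal striatum. Of the 7 members, 2 were at least 1.5-fold apart in some pair of sets, Pdyn and Chrm4, against 40.9% of 10875 genes, so the share of members was near the background. Drd1 spanned 1.20-fold from the lowest to the highest set, Sfxn1 1.17-fold, Eya1 1.30-fold, Isl1 1.36-fold and Tac1 1.46-fold. Sets 1 and 3 differed in 0 members and in 3.08% of genes, and sets 2 and 4 differed in Pdyn and in 5.72% of genes. Between sets 1 and 2 the member that differed was Chrm4 (21.9% of genes), and the same was true between sets 2 and 3 (19.8%). Pdyn and Chrm4 both differed between sets 1 and 4 (25.4%) and between sets 3 and 4 (23%). These are differences between libraries and say nothing of the genotypes.

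Pdyn in set 4 was the widest of these differences. Its dorsal level of 303 CPM (291 to 316) compares with 62.2 to 77.7 CPM in the other sets, a highest over lowest ratio of 4.88, and 0.938% of genes spanned at least 4-fold. In ventral striatum the ratio was 4.02. In all other areas together it was 2.21, with set 2 at 32.5 CPM close to the 37.4 CPM of set 4. Some single areas outside striatum had spans above the 4.02 of ventral striatum. With set 4 highest, these were 5.30 in septum, whose set 4 label was in doubt, 4.28 in cortex layer 6 and 4.19 in meninges. With set 2 highest, they were 4.42 in the ventricle area and 4.37 in white matter. A wide span was therefore not limited to striatum, though all other areas together spanned less than either striatal area. Without set 4, the dorsal levels of Pdyn spanned 1.25-fold, from set 3 to set 2. Set 4 also had the fewest counts, and its Penk level of 3199 CPM in dorsal striatum was the highest by 1.15-fold over the lowest set.

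Chrm4 differed in another manner. Its highest over lowest ratio was 1.99 in dorsal striatum, 1.87 in ventral striatum and 2.93 in all other areas, with sets 2 and 4 on the high side in each of the 3. The difference was thus at least as large outside striatum as inside it. The split of sets 1 and 3 from sets 2 and 4 is also the one that separates the pairs with 3.08% and 5.72% of genes apart from those with 19.8% to 25.4%, and sets 1 and 3 had the most counts. The part of this in the Chrm4 values was not tested.

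Within dorsal striatum, single spots carried few counts of most members. The mean was 11.0 to 25.2 counts per spot for Tac1 and 1.31 to 3.25 for Drd1, and at least 1 Drd1 count was found in 93.0%, 83.6%, 91.0% and 70.3% of the spots of sets 1 to 4. These shares have the same order as the median depth of the sets. The variance between spots was 2.88, 2.92, 1.98 and 1.78 times that expected from depth alone for Tac1, and 2.58, 2.31, 1.54 and 1.68 times for Pdyn. For the other 5 members it was 0.985 to 1.31 times. At a given relative spread this ratio grows with the mean count, which was 0.297 to 0.597 per spot for Eya1. It therefore does not rank the members by unevenness. In set 1, the quartiles of the spots were 30.2 and 117 CPM for Pdyn and 374 and 600 CPM for Tac1. The depth-scaled residuals of Tac1 and Pdyn had correlations of 0.26, 0.31, 0.21 and 0.14 over the dorsal spots of sets 1 to 4, and no other pair exceeded 0.24 in any set. Neighbouring spots share tissue, so these are descriptions.

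A further group of spots bears on Tac1, Pdyn and Isl1. In set 2, 38 spots assigned to cortex layers 2 to 4 had a striatal score above 1, and they were led by Otof, Tac1, Wfs1 and Zfp503. They held 1070 CPM of Tac1 (1021 to 1121), 262 CPM of Pdyn (238 to 288), 60.7 CPM of Isl1 (49.4 to 73.8), 64.9 CPM of Drd1 (53.2 to 78.4) and 179 CPM of Chrm4 (159 to 201). The levels of Tac1, Pdyn and Isl1 were above those of both striatal areas of set 2, whereas Drd1 and Chrm4 were near the dorsal level. The D3 dopamine receptor gene Drd3, which islands of Calleja express, was at 27.9 CPM there, and 6 spots of set 2 with at least 3 Drd3 counts held 1319 CPM of Tac1 and 98.4 CPM of Isl1. In set 1 the 11 spots with that many Drd3 counts were led by thalamic genes such as Gbx2 and Lhx9 and held 1 Drd1 count. The 38 spots supplied 1764 of the 2130 Tac1 counts and 100 of the 139 Isl1 counts in the layers 2 to 4 area of set 2. The other sets had 0, 0 and 1 such spots. These spots were singled out after their values were seen.

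Across 53 combinations of area and set, the members were related to each other in differing degrees. The log2 levels of Drd1 and Tac1 had a correlation of 0.88, those of Drd1 and Chrm4 0.72 and those of Tac1 and Pdyn 0.70. Drd1 and Sfxn1 had -0.51 and Isl1 and Chrm4 0.04. The areas share libraries and neighbouring tissue and are not independent, so no p is given. Among 11586 genes that are neither markers nor members, the most like Drd1 was the indirect-pathway gene Adora2a (0.96), followed by Serpina9 and Sh3rf2. The most like Tac1 was Rxrg (0.92), the most like Chrm4 was Hpca (0.95), which encodes the neuronal calcium sensor hippocalcin, and the most like Pdyn was Nt5e (0.82). For Isl1 the nearest were Six3 (0.90), Klhl13 and the GABA synthesis gene Gad2 (0.88). For Sfxn1 they were Zfp512 (0.90), Prmt2 and Gprasp1, and for Eya1 they were Scara3 (0.82), Gldc and Oaf.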

How the data were processed

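The data deposited were raw counts of 19465 genes in 12602 spots, all in 1 table, and were found here to be whole numbers of at least 0. Space Ranger and Seurat are named in the submitters' processing notes, and their versions, the probe set, the genome build and any filter on spots are not given in the sources used here. The assay was version 2 of Visium CytAssist for fixed tissue, per the labels' protocols. Spots under 500 counts were left out, which kept 12601 spots.

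Each spot took the area with the highest mean z-score of log counts per 10000 over the area's markers, centred within sets, or no area below 0.5. Etv1 and Smim32 were among the markers but not used here. Striatal spots were split at each set's own Otsu threshold (scikit-image 0.26.0). Counts were summed by area and set. Levels have exact Poisson intervals and ratios exact conditional binomial intervals at 95% (scipy 1.17.1). Calls used log2(CPM + 1), which understates changes of low genes, and genes averaging 5 CPM or more; the threshold was 2-fold for area against area and 1.5-fold between the striatal areas and between sets. Areas under 30 spots in a set were left out.

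The members, the comparison lists and the markers were chosen with earlier results of these data known. The genes named are the 7 members, the listed indirect-pathway, direct-pathway, signalling and receptor genes, and Drd3. For each member, the 3 genes whose log2 levels had the highest correlation with its own over areas and sets were also searched for. Other genes named were chosen after their values were seen. The edgeR test of heterozygous against wild-type mice was planned if a label tied spots to samples; none did, and it was not run. The steps were tested on simulated data. R 4.3.3 with edgeR 4.0.16 gave the TMM and RLE factors, and clusters came from scanpy 1.11.5 and leidenalg 0.10.2. Tables were handled with pandas 2.3.3 and numpy 2.4.6 in Python 3.11.15, and figures drawn with matplotlib 3.10.9. Gene neighbours are RefSeq's, with 7 of 7 members matched.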

Additional observations from a re-analysis of the deposited data

Results flagged for a closer look

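In 21 groups of 4 values (7 genes in dorsal striatum, ventral striatum and all other areas), the gap between the most extreme set and its nearest neighbour was divided by the range of the 4 sets and compared with Dixon's 95% critical value. Chance flags about 1 in 20 such groups. Pdyn in dorsal striatum of set 4 was at 303.4 CPM, with a gap of 0.936 of the range. Pdyn in ventral striatum of set 4 was at 528.8 CPM, with a gap of 0.903. Both lie above the other sets. Isl1 in ventral striatum of set 4 was at 20.1 CPM, below the other sets, with a gap of 0.952, but this value rests on 79 counts and its interval of 15.9 to 25.1 meets those of the other sets.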

How the results depend on the processing

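No paired analysis was possible because no barcode set could be tied to a sample or replicate number; a test of areas paired within sets was not run. The genotype tests by edgeR and DESeq2, the replicate block and leaving out replicates were not run for the same reason. The count of members at least 2-fold higher in dorsal striatum was 4 under each alternative run, and the same 4 genes were called. The count apart between ventral and dorsal striatum was 1, Pdyn, under each alternative run. Clusters gave no value there, since the cluster labelled ventral held 0 and 4 spots in sets 2 and 3. Its mean ventral minus dorsal score was -1.196, on the dorsal side of each set's threshold, which ran from -1.15 to -0.9085. Its spots were not part of the dorsal area under that alternative. Another cluster, led by Pdyn and Crym, held 134, 128, 278 and 94 spots in sets 1 to 4. It had 2 striatal markers among its leading genes, too few to be counted as striatum under the rule used. Leaving out each barcode set in turn, chosen after seeing the data, gave 4, 1 and from 1 to 2 members for the 3 counts, and without set 4 Chrm4 alone differed between sets. Dropping the hippocampus markers, also chosen after seeing the data, changed none of the 3 counts. The count between sets was 3 between the ends of the score alone, leaving out its middle, which added Tac1, and 3 with thinned counts, which added Eya1. Tac1 ventral over dorsal in set 2 reversed to 0.09 (log2) without Otof among the cortical markers, also chosen after seeing the data; the cause was not tested. Signs were compared with the median of a gene's 4 main values, so a set that already differed from that median adds to the counts. Eya1 had the other sign in 12 of 64 alternative values for dorsal over other areas and in 15 of 60 for ventral over dorsal. For the latter, Tac1 had it in 16 of 60 and Drd1 in 1 of 60. In the main values, Eya1 of set 3 already had the other sign in both comparisons (log2 -0.1 and 0.29). Tac1 ventral over dorsal of sets 3 and 4 stood at 0.0 and 0.01 against a negative median. Pdyn stayed between 0.69 and 1.57 and Chrm4 between -1.44 and -0.19 for ventral over dorsal, the lowest Chrm4 value coming from ventral markers alone. TMM and RLE scaling raised dorsal striatum over other areas by 0.16 to 0.23 and lowered ventral against dorsal striatum by 0.09 to 0.13 (log2). Depth limits Eya1 and Isl1 most, with 40 and 79 counts in ventral striatum of set 4.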

Other observations

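Spots were also clustered without the members, the lists and the markers, and 1 cluster, led by Otof, Nts, Tshz1 and Nrp2, held spots of all 4 sets: 37, 78, 59 and 130 in sets 1 to 4. Tac1 there was at 99.5 CPM (82.7 to 119), 797 CPM (766 to 830), 110 CPM (97.0 to 124) and 75.3 CPM (65.5 to 86.1). Pdyn was at 59.8, 222, 44.4 and 65.4 CPM and Drd1 at 8.09, 49.3, 8.16 and 5.65 CPM. Set 2 was thus above the other sets for each of these genes in this cluster, and so was the striatal marker Ppp1r1b, at 3050 CPM against 224 to 428 CPM. Sfxn1 was lowest in set 2, at 83.0 CPM against 112 to 129 CPM. This cluster was chosen after its values were seen, and whether its spots are the same tissue in the 4 sets was not tested.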
